A study of Mus musculus with 64 samples.

Results

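The Ly-6G antibody is 1 of 11 tagged antibodies counted on immune cells of the colon in a mouse model of colitis, and its counts outside neutrophils are described here. Its row was taken from each of 9 surface protein libraries, and attention was given to barcodes (droplet tags, called cells below) outside the CD11b+Ly-6G+ phenotype. These were 126305 of 130442 kept barcodes, and the CD11b+Ly-6G+ phenotype held the other 4137. A barcode counted as positive for an antibody above a cut on the centred log ratio, in which the natural log of each count (1 added) is taken relative to the average of the 11 logs of that cell. The cut was 0.712 for CD11b and 0.982 for Ly-6G.

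All 9 libraries come from SCID mice, which lack their own T and B cells, and all are labelled with transfer of CD45RBhi T cells, a transfer that causes colitis; the labels used here give no age. Distal colon was collected every 7 days, tissue of 3 animals was pooled, and lamina propria cells from a density gradient were sorted as EpCAM- and CD45+. Each of weeks 0 to 7 gave 1 untreated library, and week 7 gave 1 further library whose mice received anti-IL-12p40, which binds the common subunit of IL-12 and IL-23, from day 10. Whether the pools differ from one another by more than pools of 1 condition would was not tested, since no condition had a second pool. The other 55 of 64 samples in the series, RNA libraries included, were not analysed here. Beside Ly-6G the panel read the lymphocyte proteins CD3, CD4, CD90.2, CD127, CD103 and KLRG1, and CD64, CD11c, CD11b and Ly-6C. The week 0 library held 1 CD3+CD4+ barcode, against 600 to 10313 Ly-6G-negative ones in the later libraries.

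Ly-6G is a small protein anchored to the outer membrane by a lipid. In mice it is carried by neutrophils, the short-lived phagocytes that enter inflamed gut, and it is used together with the integrin subunit CD11b to mark them. Its gene, Ly6g (gene 546644), lies on chromosome 15 at 75155261 to 75159128 in GRCm38.p6, beside Ly6c1 at 75044018 to 75048920 and Ly6c2 at 75108161 to 75112066, which encode the monocyte and T cell protein Ly-6C. Lymphocytes are not generally taken to carry Ly-6G, so its counts on them serve as the measured floor of the antibody. Here background means the Ly-6G count on barcodes below the Ly-6G cut, with no statement on its source, which was not tested.

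The libraries held 12914066 to 28723452 antibody counts on 11415 to 20977 kept barcodes, with a median of 576.5 (week 1) to 1566 (treated week 7) counts per barcode. Before filtering, weeks 0, 2 and 4 held 16910, 21229 and 18103 barcodes, more than the roughly 16000 cells loaded, so not each barcode there can be a separate loaded cell, and shares are shares of barcodes. Library pairs shared 30 to 110 barcodes. The highest 1% of barcodes by total was left out, and doublets in the rest were not called. Ly-6G took 0.479% of all antibody counts at week 0, 1.46% at week 1, 1.19% at week 2, 3.73% at week 3, 4.52% at week 4, 3.18% at week 5, 2.45% at week 6, then 5.62% at week 7. In the treated week 7 library it took 0.476%, close to the week 0 value. Its share was thus above 2% in each untreated library from week 3 on and below 2% in the others.

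On CD11b+Ly-6G+ barcodes without CD3, the neutrophil phenotype, Ly-6G was abundant. Its median count there was 185 at week 0 (125 barcodes), 743 at week 1 (185), 339.5 at week 2 (502), 1188 at week 3 (485), 595.5 at week 4 (1094), 685 at week 5 (523), 783 at week 6 (517), 1258 at week 7 (645) and 886 in the treated library (61). The week 0 median was the lowest. The week 0 barcodes of this phenotype also carried a median of 260 counts of CD90.2, a lymphocyte protein, against 29 to 130 in the other libraries. Whether the week 0 barcodes are neutrophils was not tested.

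Pooled over the libraries, the cut passed through few barcodes. Among CD3- CD11b+ barcodes, 101 lay within 0.1 above it, with a median of 68 Ly-6G counts (14 to 674), and 85 lay within 0.1 below it, with a median of 75 (12 to 617). Where the phenotype was small they weighed more. At week 0, 12 lay above and 12 below, beside 125 barcodes of the phenotype, and at week 1, 12 and 5, beside 185. Raw counts on the 2 sides overlapped, since the ratio is taken against the cell's other antibodies.

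A large part of the Ly-6G counts sat outside the neutrophil phenotype in every library. Their share was 65.9% at week 0 and 51.9% in the treated library, where the phenotype was rare. It was 24.2% at week 1, 32.0% at week 2, 35.7% at week 3, 28.2% at week 4, 34.4% at week 5, 23.4% at week 6, then 26.2% at week 7. Of these outside counts, 100% at week 0 and 47.7% at week 7 were on barcodes below the Ly-6G cut, the highest and the lowest of the 9 libraries. The rest were on Ly-6G+ barcodes with CD3 or without CD11b.

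**Figure D1:**
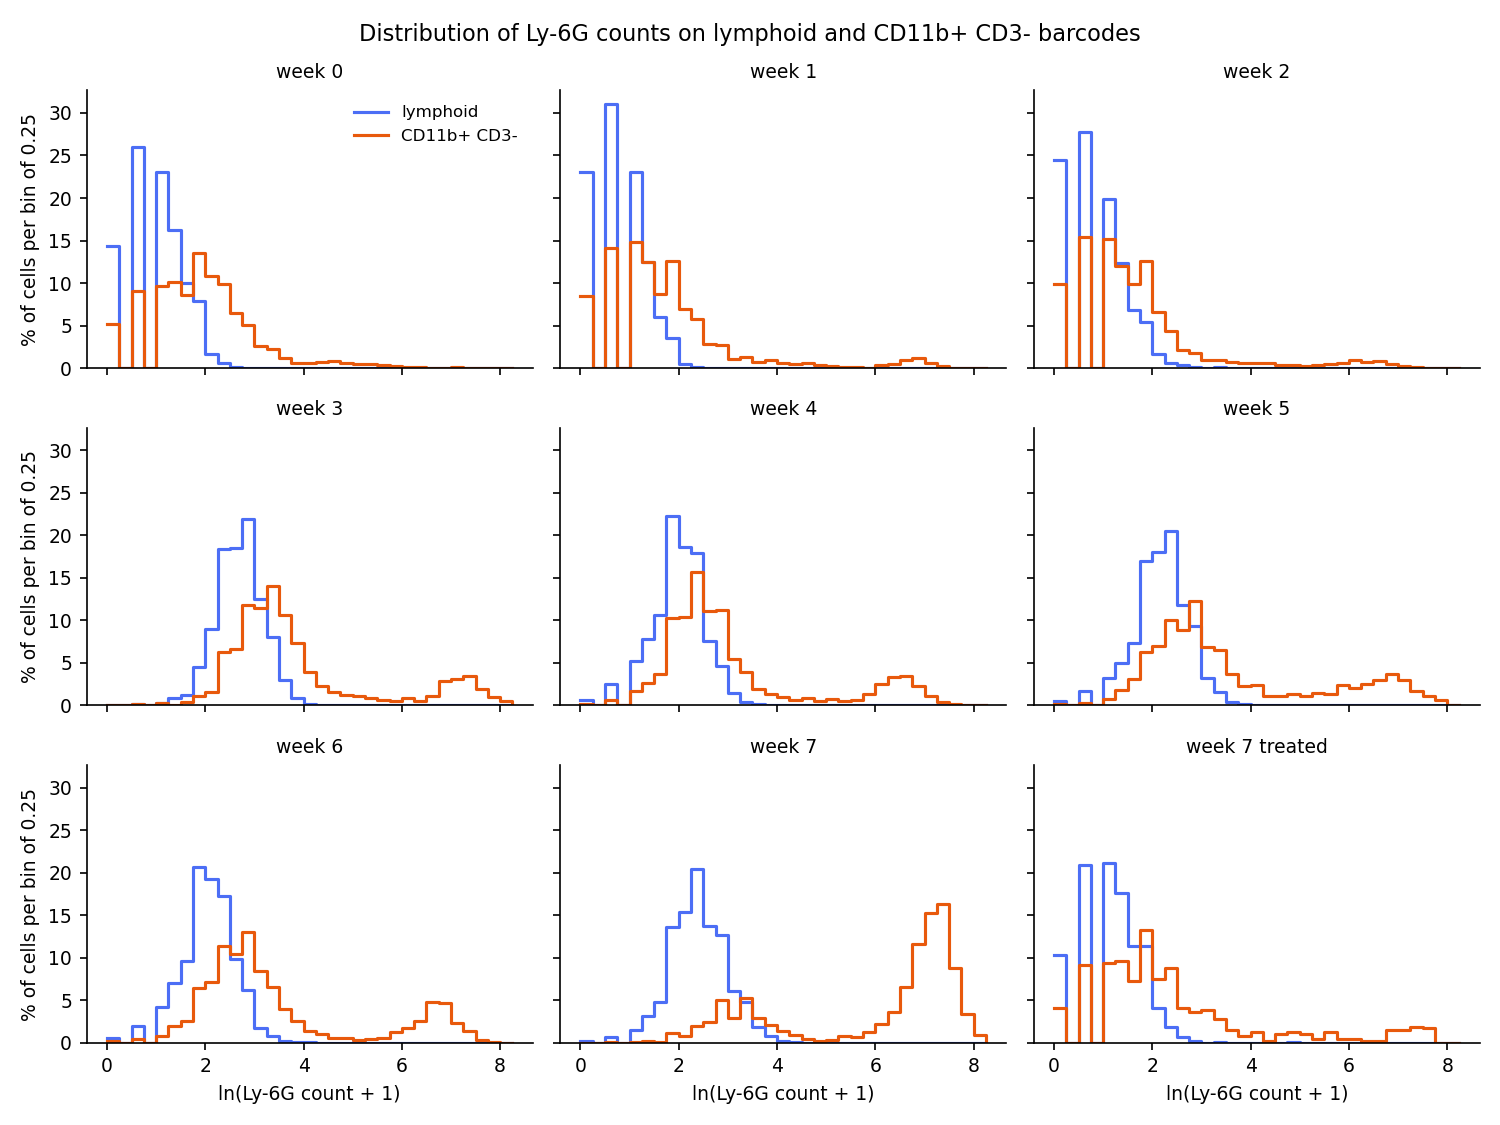
Share of cells (%) per bin of ln(Ly-6G count + 1) in each of the 9 libraries, for lymphoid barcodes (blue) and CD11b+ CD3- barcodes (orange). The blue curve includes the 0 to 7 lymphoid barcodes per library above the Ly-6G cut. The blue median is 1 or 2 counts in weeks 0, 1, 2 and treated week 7 and 7 to 14 counts in weeks 3 to 7, and the orange curve has a second rise to the right, small at weeks 1 and 2 and in the treated library and larger from week 3 on.

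Lymphoid barcodes were used to follow the background, and Ly-6C was not part of their definition. They carried CD90.2, found on T cells and innate lymphoid cells, and were below the cuts of CD11b, CD11c, CD64 and Ly-6G. There were 5905 to 10420 of them in a library. Their Ly-6G level, a mean of raw counts after removal of the lowest and highest 10% of cells, was 2.03 at week 0, 1.45 at week 1, 1.58 at week 2, 14.7 at week 3, 6.91 at week 4, 8.60 at week 5, 7.45 at week 6, then 10.8 at week 7, and 2.57 in the treated library.

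The 9 levels fell into 2 separate sets. Weeks 0, 1 and 2 and the treated library were at 2.57 or below, and weeks 3 to 7 at 6.91 or above, a gap of 2.69-fold. The next largest gap between neighbouring levels was 1.36-fold. The highest level was 10.1 times the lowest.

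The whole distribution of lymphoid counts differed between the sets, not only its mean. The share of lymphoid barcodes with no Ly-6G count was 14.4% at week 0, 23.0% at week 1, 24.5% at week 2 and 10.4% in the treated library. In weeks 3 to 7 it was 0.0656%, 0.591%, 0.499%, 0.619% and 0.260%. The 10th percentile of each high library, 3 to 7 counts, exceeded the median of each low library, 1 or 2 counts. The 99th percentile was 6 to 12 counts in the low set and 23 to 43.8 in the high set.

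The neutrophil phenotype lies above the Ly-6G cut and this background below it by definition, so their order was largely set by the gates. The ratio of its median Ly-6G count to the lymphoid median was 92.5 at week 0, 743 at week 1, 339.5 at week 2, 84.9 at week 3, 85.1 at week 4, 85.6 at week 5, 112 at week 6, 126 at week 7 and 443 in the treated library. Week 3 held both the highest lymphoid level and the lowest ratio. The ratios of the low set rest on lymphoid medians of 1 or 2 counts, where a change of 1 count shifts them strongly.

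The low and high sets were also the libraries with low and high shares of neutrophil-phenotype barcodes. The share of that phenotype was 0.490% in the treated library, 0.747% at week 0, 1.47% at week 1, then 2.39% at week 2, the 4 libraries of the low set. It was 3.76% at week 5, 3.86% at week 3, 4.53% at week 6, 5.42% at week 7, then 6.11% at week 4, the 5 libraries of the high set. Within neither set did the level follow the share. In the high set week 4, with the highest share, had the lowest level (6.91), and in the low set the treated library, with the lowest share, had the highest (2.57). Share and level come from the same antibody in the same libraries.

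Over all 9 libraries the level and the share had a Spearman rho of 0.600 (two-sided exact permutation p = 0.0968) and a Pearson r of 0.697 (two-sided exact permutation p = 0.0404). The rank test did not pass 0.05. Without the treated and week 0 libraries, the 2 farthest from the median share, rho was 0.464 (exact permutation p = 0.302) and r was 0.583 (exact permutation p = 0.169). These pooled coefficients rest on the gap between the sets, and no coefficient was computed within sets of under 6 libraries.

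The median total count per barcode had a rho of 0.0167 with the neutrophil-phenotype share (exact permutation p = 0.982). Without the treated and week 0 libraries this rho was 0.536 (exact permutation p = 0.236), so the value near 0 rests on those libraries. On scales that take the cell's other counts into account the rank test passed. As a percent of all antibody counts of the lymphoid barcodes, Ly-6G was 0.165% at week 0, 0.238% at week 1, 0.204% at week 2, 1.02% at week 3, 0.802% at week 4, 0.663% at week 5, 0.508% at week 6, 0.795% at week 7 and 0.155% in the treated library. The same 2 sets appeared, and rho with the share was 0.850 (exact permutation p = 0.00607). With every cell thinned to 200 counts rho was 0.817 (exact permutation p = 0.0108), at levels of 0.260 to 0.434 counts in the low set and 0.913 to 2.10 in the high set. The median centred log ratio gave 0.767 (exact permutation p = 0.0214).

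The neutrophil-phenotype barcodes also differed in how much antibody each carried, with a mean of 340 Ly-6G counts at week 0 to 1296 at week 7. Their summed Ly-6G counts were divided by all kept barcodes of the library, which combines their share with the amount on each. These sums per kept barcode were 2.54 at week 0, 4.23 with treatment, 10.2 at week 1, then 9.62 at week 2. They were 30.1 at week 5, 36.3 at week 6, 38.4 at week 4, 49.6 at week 3, then 70.2 at week 7. Against this sum the lymphoid level had a rho of 0.767 (exact permutation p = 0.0214) and an r of 0.878 (exact permutation p = 0.0021). Without weeks 7 and 0, rho was 0.714 (exact permutation p = 0.0881) and r was 0.924 (exact permutation p = 0.00714). Both axes are raw Ly-6G counts per barcode of the same library. A library-wide difference in Ly-6G counts would move both together, and whether there was one was not tested. The background was not a fixed fraction of the sum, since the ratio of lymphoid level to the sum was 0.801 at week 0, 0.606 in the treated library and 0.143 to 0.296 in the other 7.

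**Figure D2:**
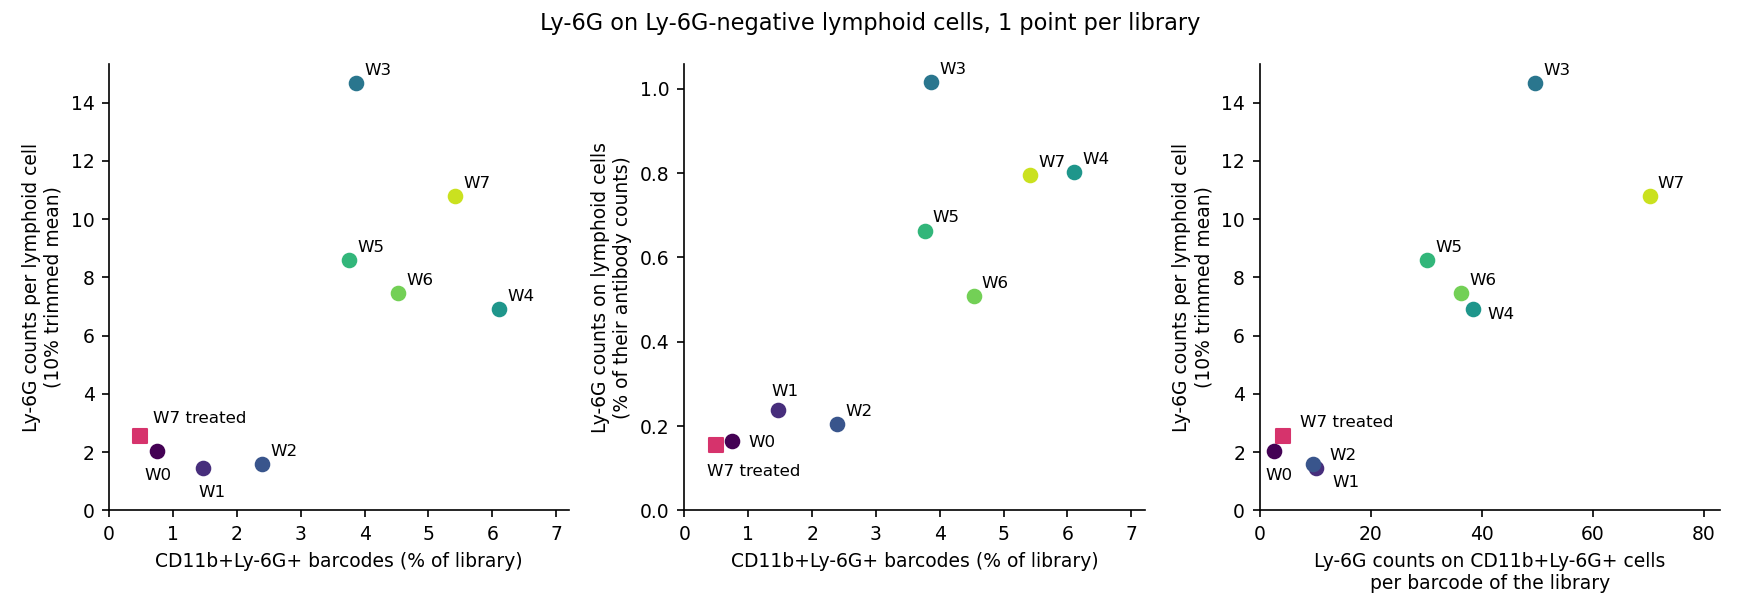
Ly-6G on lymphoid barcodes below the cut, 1 point per library (W, week; square, treated), as counts (left, right) or percent of the cells' counts (middle), against the share of CD11b+Ly-6G+ barcodes (left, middle) or their Ly-6G counts per barcode of the library (right). Weeks 0 to 2 and the treated library lie at 1.45 to 2.57 counts and weeks 3 to 7 at 6.91 to 14.7, with no points in between.

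Other antibodies against myeloid proteins were read on the same lymphoid barcodes. CD11b, the integrin subunit of neutrophils and monocytes, ranged 3.23-fold between libraries, the dendritic cell integrin CD11c 5.14-fold and the macrophage Fc receptor CD64 5.99-fold, against 10.1-fold for Ly-6G. From week 0 to week 7 the CD11b level went from 7.26 to 4.50 counts, CD11c from 5.26 to 5.29 and CD64 from 3.38 to 3.34, while Ly-6G went from 2.03 to 10.8. They too were higher in weeks 3 to 6 than in weeks 1 and 2. CD11b was 3.22 and 4.72 counts at weeks 1 and 2 and 9.07 to 10.4 in weeks 3 to 6, CD11c 2.33 and 4.22 against 6.27 to 12.0, and CD64 1.55 and 2.01 against 5.38 to 9.28. Ly-6C, a protein of monocytes and T cells, ranged 4.14-fold. It was 65.8 and 168 counts at weeks 1 and 2 and 138 to 267 in weeks 3 to 6, so these ranges overlapped. No replicate pool was there to test these differences.

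Across all 11 antibodies, the level on lymphoid barcodes passed the test against the neutrophil-phenotype share in 0 cases (0% called, exact permutation test with Benjamini-Hochberg adjustment). At an unadjusted p under 0.05 there was 1, CD11c, with rho 0.750. For Ly-6G the adjusted exact permutation p was 0.177 on raw counts. The same adjusted exact permutation p was 0.0668 as a percent of counts, 0.0784 with thinned cells and 0.118 on the log ratio scale. The relation between share and level is therefore not shown to be particular to Ly-6G.

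Over the 8 untreated weeks the lymphoid Ly-6G level had a rho of 0.667 with week (exact permutation p = 0.0831) and an r of 0.639 (exact permutation p = 0.0911), short of the threshold. Without weeks 0 and 7, rho was 0.600 (exact permutation p = 0.242). Without week 3, the library with the highest level, rho was 0.857 (exact permutation p = 0.0238), so this library decides whether the trend passes. The step lay between weeks 2 and 3, from 1.58 to 14.7 counts.

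Within a library, Ly-6G on lymphoid barcodes was higher on cells with more of the other antibodies, but by less. Cells were split at the 25th and 75th percentiles of their other counts, and those counts differed 2.91 to 5.79-fold between the medians of the upper and lower group. The Ly-6G level differed 1.51-fold at week 0 to 3.1-fold at week 2, and its ratio was below that of the other counts in each of the 9 libraries. At week 3 the lower group already carried 10.8 Ly-6G counts, above the upper group of weeks 0, 1 and 2 and the treated library (1.90 to 3.52). The difference between the sets was thus present in cells of low and of high totals.

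At week 7 the treated library had 2.57 Ly-6G counts on lymphoid barcodes and the untreated one 10.8, which is 4.21-fold lower in the treated. The treated value lay outside the untreated weeks 5 to 7 (7.45 to 10.8) and above weeks 0 to 2 (1.45 to 2.03). This compares 1 library with 1, so there was no test. By the same rule of size, 1.5-fold and outside weeks 5 to 7, 5 of 11 antibodies differed (45.5% called), 3 of them lower in the treated library (27.3% called). The other lower ones were the T cell coreceptor CD4, at 0.501 times the untreated level, and Ly-6C, at 0.587 times. CD90.2 (1.69 times) and KLRG1 (2.93 times), a receptor on effector lymphocytes, were higher. CD11b, CD11c and CD64 did not meet the rule.

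The Ly-6G difference at week 7 was seen in each phenotype with at least 50 background barcodes in both libraries. On CD3+CD4+ barcodes, helper T cells by their markers, the level was 10.8 untreated and 2.67 treated. On CD3-CD90.2+ barcodes, where innate lymphoid cells fall, it was 11.5 and 2.42, and on CD11c+CD64- barcodes, the dendritic cell gate, 11.7 and 2.96. On CD64+Ly-6C- barcodes, the macrophage gate, it was 25.5 and 4.39, and on barcodes in no gate 11.8 and 3.04. The ratio of untreated to treated ran from 3.89 to 5.80.

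The background was then read in the 8 phenotypes outside the neutrophil gate. All levels were taken below the Ly-6G cut, since phenotypes that require CD11b and no CD3 hold no Ly-6G+ barcode by construction. CD3-CD90.2+ barcodes had 6.34 ± 4.78 counts (SD, n = 9 libraries), CD3+CD4+ 6.90 ± 4.68 (n = 8), CD11c+CD64- 6.91 ± 4.97 (n = 9) and barcodes in no gate 8.86 ± 7.41 (n = 9). CD3+CD4- barcodes had 10.9 ± 13.8 (n = 7) and CD64+Ly-6C- 12.2 ± 8.33 (n = 9). The monocyte gates had the highest means, with 12.2 ± 12.1 (n = 5) for CD11b+Ly-6C+CD64- and 13.2 ± 9.47 (n = 8) for CD11b+Ly-6C+CD64+. The means rest on different libraries, and the SDs include the gap between the 2 sets. In shared libraries the mean difference ran the other way in 2 of the 7 steps: CD11b+Ly-6C+CD64+ minus CD11b+Ly-6C+CD64- was -1.27 counts over 5 libraries, and CD64+Ly-6C- minus CD3+CD4- was -1.02 over 7. Single libraries weighed on such means, since CD64+Ly-6C- was above CD3+CD4- in 5 of 7 libraries. CD3+CD4- was above barcodes in no gate in only 2 of 7, and CD11b+Ly-6C+CD64- above CD64+Ly-6C- in only 2 of 5. The upper place of the monocyte gates depended on the scale. On the log ratio scale the CD11b+Ly-6C+CD64+ median was above the lymphoid one in weeks 2 to 7 and below it at weeks 0 and 1. It was -0.545 against -0.693 at week 3 and -1.72 against -1.37 at week 0. Barcodes in no gate were above both on that scale, at -0.0562 at week 3. As a percent of the cells' counts, Ly-6G on CD11b+Ly-6C+CD64+ barcodes was below that on lymphoid barcodes in each of the 8 libraries with a value, at 0.148% against 0.165% at week 0, 0.475% against 1.02% at week 3 and 0.593% against 0.795% at week 7.

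Neighbours in this order were not shown to differ. None of 7 neighbouring pairs passed the exact sign-flip permutation test with Benjamini-Hochberg adjustment (0% called), and 2 had an unadjusted p under 0.05. The 2 pairs with 5 libraries could not pass, since 0.0625 is the smallest exact permutation p at that number. CD11c+CD64- exceeded CD3+CD4+ by 0.58 ± 0.767 counts (SD) and in 6 of 8 libraries (adjusted exact permutation p = 0.164). Barcodes in no gate exceeded CD11c+CD64- by 1.96 ± 4.07 counts and in 8 of 9 libraries (adjusted exact permutation p = 0.164). As a percent of all counts or on the log ratio scale 3 of the 7 pairs passed, and CD3+CD4+ was then below CD3-CD90.2+.

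Each phenotype showed the step between weeks 2 and 3. On CD64+Ly-6C- barcodes the level was 7.63, 4.57 and 3.49 counts at weeks 0, 1 and 2 and 24.6, 11.5, 15.1, 12.9 and 25.5 at weeks 3 to 7. On CD3+CD4+ barcodes it was 1.78 and 1.82 at weeks 1 and 2 and 14.9, 7.16, 8.78, 7.26 and 10.8 at weeks 3 to 7. On CD11b+Ly-6C+CD64+ barcodes it was 4.84, 3.64 and 3.29 at weeks 0 to 2 and 28.3, 11.8, 14.0, 14.8 and 24.8 at weeks 3 to 7. In these 3 phenotypes the values of weeks 3 to 7 all lay above those of weeks 0 to 2, a split chosen after the values were seen, and week 3 or week 7 was the highest.

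Of 7 phenotypes with at least 6 libraries, 0 passed the exact permutation test of this level against the neutrophil-phenotype share after Benjamini-Hochberg adjustment (0% called), and 0 had an unadjusted p under 0.05. Their rho values ran from 0.536 to 0.667. As a percent of all counts, 6 of the 7 passed. The CD11b+Ly-6C+CD64- gate had 5 libraries and was not tested.

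Barcodes in no gate had low totals, with medians of 153 to 868 antibody counts, and Ly-6G took 0.887% (week 0) to 3.27% (week 7) of them, against 0.155% to 1.02% on lymphoid barcodes. CD3+CD4- barcodes at week 3 had a level of 38.6 counts, and 30.0% of them carried more than 50 Ly-6G counts while still below the cut. At week 4 the level there was 10.96 and the share above 50 counts 7.54%.

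**Figure D3:**
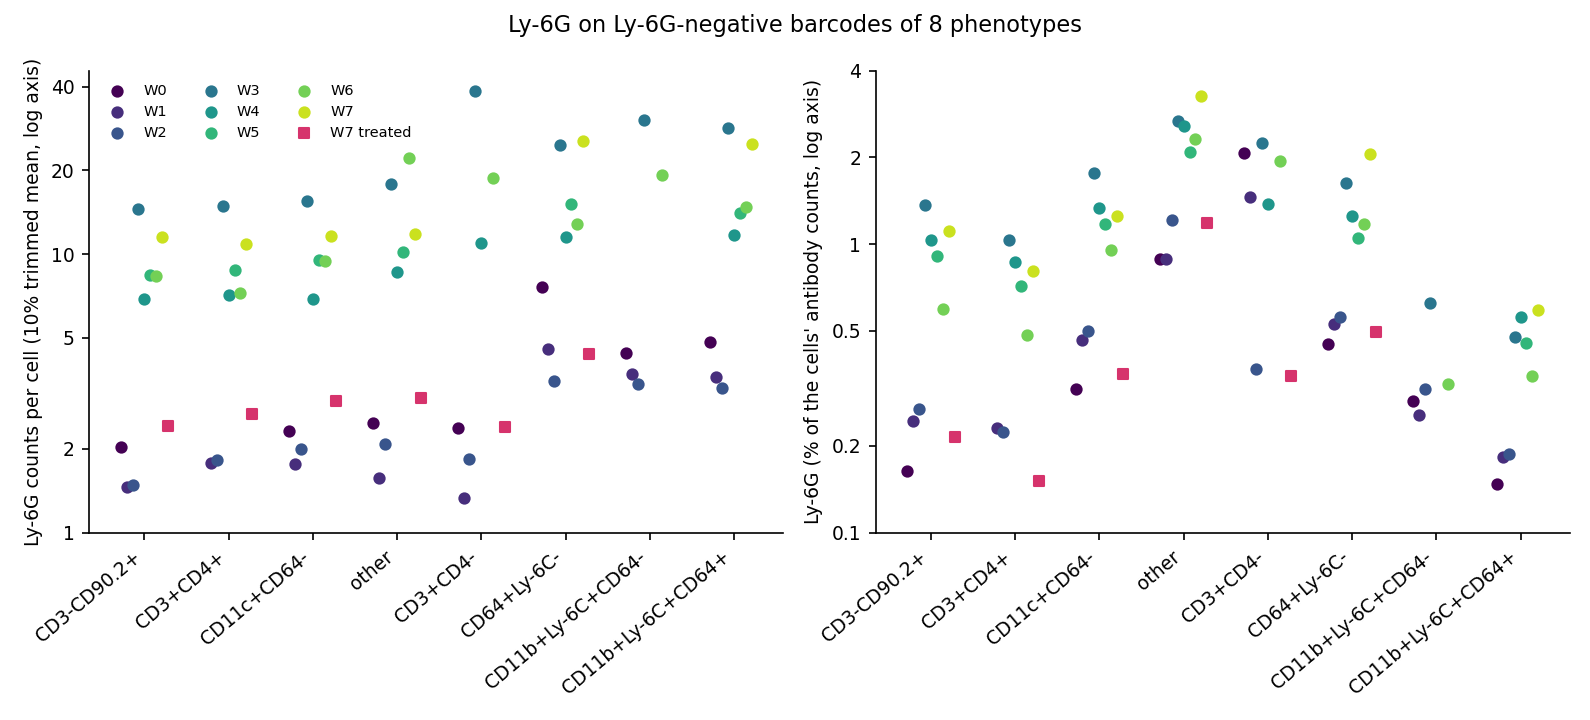
Ly-6G on barcodes below the Ly-6G cut in 8 phenotypes (x axis, ordered by mean level), as counts (left) and percent of the cells' antibody counts (right), both on log axes, 1 point per library with at least 50 such barcodes. Weeks 3 to 7 lie above weeks 0 to 2 and the treated library in each phenotype of the left panel, from 6.88 counts upward except that week 0 reaches 7.63 on CD64+Ly-6C- barcodes.

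Among barcodes outside the neutrophil phenotype, the antibodies whose counts went most with Ly-6G from cell to cell, after the sum of the remaining antibodies was taken out, were Ly-6C, CD11b and CD11c. The Spearman correlation with Ly-6C had a median of 0.538 over the 9 libraries (0.422 to 0.720). It was 0.429 (0.247 to 0.469) for CD11b and 0.334 (0.242 to 0.441) for CD11c. Without that step the medians were 0.587 for Ly-6C, 0.525 for CD11b, 0.444 for CD64 and 0.373 for CD11c, so CD64 then stood before CD11c. Within lymphoid barcodes alone the Ly-6C value was 0.50 (0.319 to 0.681), against 0.244 for CD11c and 0.218 for CD11b. These are correlations across cells that share a library and its depth, given as a description.

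A total of 4793 barcodes were Ly-6G+, and 656 of them lay outside the neutrophil phenotype. Of the 656, 598 carried both CD3 and CD11b and are placed by the gate order among T cells, and 58 lacked CD11b. By library, the outside barcodes numbered 0 at week 0, 3 at week 1, 75 at week 2, 124 at week 3, 187 at week 4, 104 at week 5, 13 at week 6, 133 at week 7 and 17 in the treated library.

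The CD3+CD4+ barcodes with Ly-6G carried the surface proteins of T cells and of neutrophils together. In the 7 libraries with at least 5 of them there were 63 at week 2, 80 at week 3, 156 at week 4, 99 at week 5, 9 at week 6, 120 at week 7 and 12 in the treated library. As a share of all CD3+CD4+ barcodes of the library, these ranged from 0.142% (9 of 6324, week 6) to 1.62% (156 of 9632, week 4). Between 88.9% and 99.2% of the Ly-6G+ ones were CD11b+. Their median CD11b count was 201 to 541.5, against 4 to 10 on Ly-6G-negative CD3+CD4+ barcodes and 302.5 to 770 on the neutrophil phenotype. Their median Ly-6G count was 0.580 to 0.954 times that of the neutrophil phenotype of the same library. Both were chosen above the same Ly-6G cut, so a high Ly-6G count was largely set by that choice.

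These barcodes also held more antibody in all. At week 7 their median total was 4120 counts, against 1323 on Ly-6G-negative CD3+CD4+ barcodes and 3656 on the neutrophil phenotype. The ratio to the Ly-6G-negative T cells was 1.73 at week 2, 2.25 at week 3, 2.13 at week 4, 2.47 at week 5, 1.88 at week 6, 3.11 at week 7 and 2.27 in the treated library, above 1 in 7 of 7. The totals include Ly-6G, which chose these barcodes, and CD11b. With both left out, a check added after the values were seen, the ratio was 1.16 at week 2 to 1.87 at week 7, above 1 in 7 of 7. Their median CD4 count was 1.06 to 1.29 times that of Ly-6G-negative T cells, and their median CD3 count was 56 to 102 against 36 to 70. Whether they are droplets with more than 1 cell was not tested.

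**Figure D4:**
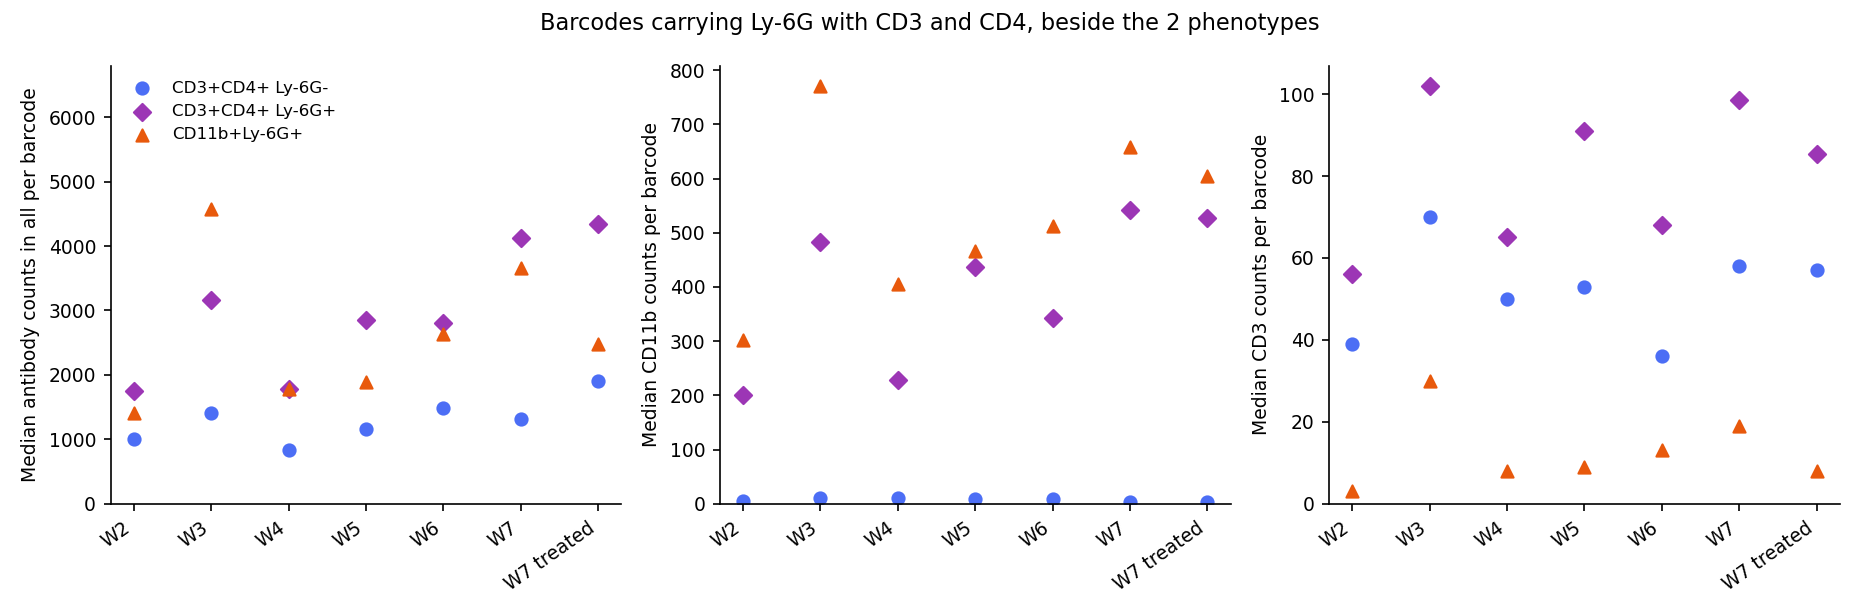
Median total antibody counts (left), CD11b counts (middle) and CD3 counts (right) per barcode in the 7 libraries with at least 5 Ly-6G+ CD3+CD4+ barcodes, for those barcodes (diamonds), Ly-6G-negative CD3+CD4+ barcodes (circles) and the CD11b+Ly-6G+ phenotype (triangles). Diamonds lie above circles in each panel, and at 201 to 541.5 CD11b counts they lie nearer to triangles than to circles.

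CD3+CD4- barcodes were Ly-6G+ more often than CD3+CD4+ ones in each library but week 0, on small numbers. The CD3+CD4+ share stayed at 1.62% or below throughout. The CD3+CD4- share was 12.0% at week 3 (36 of 299 barcodes), 9.35% at week 4 (26 of 278) and 17.3% at week 7 (9 of 52). It was 0.530% in the treated library (3 of 566), 0.333% at week 1, 1.78% at week 2 (8 of 449) and 0 of 100 at week 0. Weeks 5 and 6 had 6.38% (3 of 47) and 1.67% (1 of 60), so libraries with many neutrophil-phenotype barcodes ranged widely, and no test was made. The Ly-6G+ barcodes of this gate were not free of CD4. Their median CD4 count was 157.5 at week 3, 80.5 at week 4 and 98 at week 7. On Ly-6G-negative barcodes of the gate it was 72, 38 and 6. The CD4 cut lies on a ratio taken against the cell's other antibodies, Ly-6G included. Membership of this gate is thus not independent of Ly-6G.

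Ly-6G+ barcodes without CD11b were rare. There were 0 of 16735 at week 0, which at 3 counts allows a share of up to 0.0179% (exact 95% binomial upper bound 0.0220%), then 2 at week 1 (0.0159%), 8 at week 2 (0.0381%), 16 at week 3 (0.127%), 13 at week 4 (0.0726%), 6 at week 5 (0.0432%), 4 at week 6 (0.0350%), then 6 at week 7 (0.0504%). The treated library held 3 (0.0241%). The exact 95% binomial interval was 0.0729% to 0.207% at week 3 and 0.0185% to 0.110% at week 7, and intervals and limits cover counting error only. Week 3 had the highest share, as it had the highest lymphoid background.

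Their share went with the share of the neutrophil phenotype, with a rho of 0.767 (exact permutation p = 0.0214) and an r of 0.590 (exact permutation p = 0.0848). Both axes rest on the same Ly-6G cut. Without the treated and week 0 libraries rho was 0.607 (exact permutation p = 0.167), and without week 0 or without week 1 alone it was 0.714 (exact permutation p = 0.0576 in each case). With the Ly-6G cut raised by 0.5 it was 0.40 (exact permutation p = 0.282), and with the CD11b cut lowered by 0.5 it was 0.55 (exact permutation p = 0.130).

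Most of the 58 lay close to the CD11b cut. Of them 47 were within 0.5 of it and 54 within 1 on the log ratio scale, and their median CD11b count was 66 (2 to 1162). Their median Ly-6G count was 149.5 (13 to 2507), with fewer than 50 counts in 11 of them. Only 18 had at least 0.5 times the neutrophil-phenotype median of their library. CD3 was above its cut in 29.

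By gate, 24 of the 58 were CD3+CD4+ (41.4%, against 59.5% of all CD11b-negative barcodes), 16 were in no gate (27.6% against 4.17%), 11 were CD3-CD90.2+ (19.0% against 22.7%) and 5 were CD3+CD4- (8.62% against 1.72%). The CD11c+CD64- and CD64+Ly-6C- gates held 1 each. The comparison shares pool all libraries and are not matched to those that held the 58. Weeks 0 and 1 held 0 and 2 of the 58, but 6988 and 5289 CD3-CD90.2+ barcodes. Week 3 held 16 of the 58 and 1146 such barcodes. Whether a gate was over- or under-represented was thus not tested. At week 3, 1 CD3+CD4- barcode of 14909 counts carried 2507 of Ly-6G, 5576 of Ly-6C, 1043 of CD11b and 738 of CD3. It also carried 579 of CD4, above the median of 175 on Ly-6G-negative CD3+CD4+ barcodes of that week. Its CD4 was below the cut on the ratio, which is taken against its other antibodies. At week 4, 1 CD3+CD4+ barcode of 1751 counts carried 670 of Ly-6G with 75 of CD11b, 80 of CD3 and 106 of CD4. These examples were chosen after their values were seen.

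The total counts of these barcodes were not shown to differ from those of other CD11b-negative barcodes. The ratio of median totals was 3.02 at week 1, 0.985 at week 2, 1.07 at week 3, 1.92 at week 4, 1.73 at week 5, 1.52 at week 6, 0.303 at week 7 and 2.13 in the treated library. The mean log2 ratio was 0.42 ± 1.01 (SD, n = 8 libraries, exact sign-flip permutation p = 0.289, where 0.00781 is the smallest possible), with 6 of 8 above 0. The week 7 library went the other way from most, and without it the mean was 0.73 (exact permutation p = 0.0313). With the CD11b cut lowered by 0.5 the mean was -0.66 over 5 libraries (exact permutation p = 0.188), so the direction depends on that cut.

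The cut itself depended on the library in which it was fitted. A mixture of 2 normal curves fitted to each library's own Ly-6G ratios gave components 3.38 to 6.42 spreads apart (Ashman's D) in weeks 2 to 7, with cuts from 0.44 to 1.01. At week 0, week 1 and in the treated library the components were 0.309, 0.644 and 0.226 spreads apart, with cuts of -1.55, -1.23 and -1.59. Those 3 cuts lie close to the lymphoid medians of their own libraries, which were -1.37, -1.13 and -1.59. With such cuts the rho of the Ly-6G+ CD11b- share with the neutrophil-phenotype share was 0.0667 (exact permutation p = 0.880).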

How the data were processed

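Each deposited table gives unnormalized counts of 11 TotalSeq antibodies for every barcode, and all values were checked to be whole numbers. Per the labels' protocols about 16000 cells per sample were loaded. Seurat 4.1.1, Cell Ranger 6.0.2 and mm10 are listed, without roles, per the submitters' processing notes; how barcodes were selected is not given here.

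A barcode needed 50 counts and had to lie below the highest 1% of its library, and 130442 of 131917 did. Counts became centred log ratios (natural log, pseudocount 1). Cuts came from a mixture of 2 normal curves fitted once per antibody on 2000 barcodes per library (scikit-learn 1.9.0). Phenotypes were assigned in order: CD3+ with and without CD4, then the neutrophil gate (CD11b with Ly-6G), the monocyte gates (CD11b with Ly-6C, without and then with CD64), CD64+Ly-6C-, then CD11c+CD64-, last CD3-CD90.2+ and no gate; Ly-6C was poorly separated (Ashman's D 1.82). A phenotype's level needed 50 barcodes, and a relation 6 libraries. Levels were related to shares by exact permutation over libraries (Python 3.11.15, scipy 1.17.1), two-sided throughout, at 0.05 with Benjamini-Hochberg adjustment within each family of 11 antibodies, 7 phenotypes or 7 pairs. The scripts were tested on simulated data.

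Each group is 1 pool, so treated and untreated week 7 were compared by size. Other levels per cell, barcode filters, cuts, depths and left-out libraries were tried. The 3 antibodies named as most like Ly-6G are those with the highest median partial Spearman correlation across cells, the sum of the other antibodies taken out. The antibody and the lists were chosen with earlier results of these data known. Sequences of the antibody tags are not used here. RefSeq positions are on GRCm38.p6.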

Additional observations from a re-analysis of the deposited data

How the results depend on the processing

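The lymphoid Ly-6G level kept a positive rho with the neutrophil-phenotype share under all 24 alternatives run. The unadjusted rank test passed in 7 of them: the median centred log ratio (0.767), the percent of counts (0.850), counts scaled to the library median total (0.733), cells thinned to 200 counts (0.817), the share among CD3- barcodes (0.700), the Ly-6G counts on neutrophil-phenotype barcodes per barcode (0.767) and the level divided by that of CD11b, CD11c and CD64, an alternative chosen after seeing the data (0.700). Leaving out each library gave 0.548 to 0.667. Thinning left out 0.366% (week 3) to 13.7% (week 1) of barcodes.

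The count of phenotypes that passed against the share went from 0 to 5 with the log ratio, 6 with the percent of counts, 4 with scaled counts and 6 (of 6 tested) with thinning. The count of neighbouring pairs went from 0 to 1 with the plain mean and to 3 each with the log ratio, the percent and thinning. Single pairs changed direction: CD3+CD4+ minus CD3-CD90.2+ was -0.36 (log ratio), -0.15 (percent) and -0.43 (thinned counts), CD3+CD4- minus no gate was -0.29, -0.27 and -0.96 on the same scales, CD11b+Ly-6C+CD64- minus CD64+Ly-6C- was -0.51 (percent) and -0.96 (thinned), and CD64+Ly-6C- minus CD3+CD4- was 0.0527 with scaled counts. The cause was not tested.

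The Ly-6G+ CD11b- share lost its call with the Ly-6G cut raised (0.40), the CD11b cut lowered (0.55) and cuts fitted per library (0.0667); leaving out each library gave 0.714 to 0.857. The trend with week was 0.571 to 0.857 with each library left out and passed without week 3 (0.857) and with the level divided by that of CD11b, CD11c and CD64 (0.762). The log2 ratio of totals was 0.25 to 0.73 with each library left out, 1.12 with the Ly-6G cut raised (passed) and -0.66 with the CD11b cut lowered. The treated week 7 ratio stayed at 0.165 to 0.408 and met its rule under all 10 alternatives, and the 11-antibody test called 0 in all 15. No paired analysis was possible because each week and treatment held 1 library, so no replicate numbers link groups; phenotypes were compared within libraries.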
